A study of Homo sapiens with 7 samples.

Results

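The stromal miRNAs miR-143, miR-145, miR-126 and miR-199a, which smooth muscle, fibroblasts and endothelium make in quantity, were followed through a course of TEAD1 silencing in HepG2 cells. Their 6 rows were taken by name and not by value, as hsa-miR-143-3p, hsa-miR-145-5p, hsa-miR-126-3p, hsa-miR-126-5p, hsa-miR-199a-3p and hsa-miR-199a-5p, out of 2652 mature miRNAs in the deposited count files. HepG2 is an established human liver cancer line, here grown in medium with bovine serum. TEAD1 is the DNA-binding transcription factor through which the Hippo pathway coactivators YAP and TAZ reach their target genes. The series profiled miRNAs while TEAD1 was silenced and holds 7 small RNA libraries: 1 of untreated cells labelled WT (0 h), and, labelled TEAD1 knockdown, 1 of cells given siRNA 1 and 1 of cells given siRNA 2 at each of 24, 36 and 48 h. The untreated cells received no siRNA of any kind, so loss of TEAD1 cannot be told apart from transfection or from time in culture. TEAD1 itself is an mRNA and is not measured in these libraries. Nothing in the labels says that the libraries came from separate cultures, so p-values measure only how these libraries spread, and part of that spread may be technical.

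A miRNA is cut from a hairpin by Drosha and Dicer, and 1 of the hairpin's arms is usually kept as the guide while the other is degraded. The guide pairs with target mRNAs through its seed, bases 2 to 8. miR-143 and miR-145 are cut from the same long noncoding RNA, CARMN, and are known as switches of the contractile smooth muscle state, where serum response factor and myocardin drive them. miR-126 lies in an intron of EGFL7, an endothelial secreted protein, and its 3p arm is known to raise the response of endothelium to VEGF by repressing SPRED1. miR-199a is made in mesenchymal cells, in part from DNM3OS, and miR-199a-3p is also known as an abundant miRNA of normal liver that is low in liver cancer lines.

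The mature sequences, as the count files give them, are shown with the seed in capitals, because the seed sets which mRNAs each can reach and because 1 pair cannot be told apart by reads.
miR-143-3p: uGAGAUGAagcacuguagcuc
miR-145-5p: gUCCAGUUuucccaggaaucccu
miR-126-3p: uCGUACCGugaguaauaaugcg
miR-126-5p: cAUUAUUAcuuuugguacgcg
miR-199a-3p: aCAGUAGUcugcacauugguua
miR-199a-5p: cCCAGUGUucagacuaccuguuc
miR-199b-5p: cCCAGUGUuuagacuaucuguuc
No 2 of the 6 share a seed. miR-199a-3p is identical over its 22 bases to miR-199b-3p, which has its own row in the files, so how their reads were split between the rows is uncertain. miR-199a-5p shares its seed with miR-199b-5p and differs from it by C10U and C17U, counted from 1 at the 5′ end of miR-199a-5p. The seed of miR-143-3p is shared with miR-4770 and miR-6088 and that of miR-145-5p with miR-5195-3p, while no other entry has the seed of either miR-126 arm.

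The hairpins show how the members are physically joined, with the mature arms in capitals (RefSeq, GRCh38.p14).
MIR143: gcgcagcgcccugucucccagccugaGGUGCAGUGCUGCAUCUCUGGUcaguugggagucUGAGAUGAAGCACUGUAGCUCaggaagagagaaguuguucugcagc
MIR145: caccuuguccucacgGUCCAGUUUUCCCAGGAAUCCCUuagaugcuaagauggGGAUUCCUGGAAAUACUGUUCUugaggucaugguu
MIR126: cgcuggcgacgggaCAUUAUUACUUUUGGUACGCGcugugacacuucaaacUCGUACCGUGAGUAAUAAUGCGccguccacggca
MIR199A2: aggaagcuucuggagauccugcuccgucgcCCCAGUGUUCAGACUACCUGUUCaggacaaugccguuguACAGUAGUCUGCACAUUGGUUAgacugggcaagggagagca
MIR143 lies at chr5:149428918-149429023 (plus strand) and MIR145 at chr5:149430646-149430733 (plus strand), 1622 bases apart. In GENCODE 29 miR-143-3p lies in an exon and miR-145-5p in an intron of CARMN, on its strand. MIR126 lies at chr9:136670602-136670686 (plus strand) in an intron of EGFL7, and both of its arms are members. miR-199a has a pair of loci: MIR199A2 at chr1:172144535-172144644 (minus strand), in an exon of DNM3OS, and MIR199A1 at chr19:10817426-10817496 (minus strand), within an intron of DNM2 on the opposite strand. The RefSeq promoters of CARMN, EGFL7 and DNM3OS (250 bases before to 50 after the start) were searched for CATTCC, the core of the TEAD motif, and for its reverse complement GGAATG. They held none, against 4928 of all 35116 such promoters (14.0%). This says only that these letters are not in those windows.

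The libraries held 13134601 to 15591345 reads, of which 6171851 were assigned to a miRNA in the untreated library and 1920832 to 3739729 in the siRNA-treated ones. The miRNA share of all reads was thus 13.4% to 26.5% after siRNA, against 43.1% untreated. Levels are CPM, relative to the miRNA reads of a library after TMM scaling, and intervals are exact 95% Poisson or Clopper-Pearson intervals, which cover counting error only. A row with 0 reads allows a level of up to 3 reads, which came to 0.560 CPM untreated and 0.887 to 1.52 CPM after siRNA. As to the cell type, the hepatocyte-linked miR-192-5p stood at 1710 to 3066 CPM over the 7 libraries and miR-148a-3p at 13927 to 25536 CPM. miR-122-5p, the leading hepatocyte miRNA, was at 45.5 CPM untreated, and over 24, 36 and 48 h at 32.2, 47.6 and 4.37 CPM under siRNA 1 and at 4.60, 6.60 and 3.76 CPM under siRNA 2. It was thus lower in all siRNA 2 libraries and in siRNA 1 at 24 and 48 h than in untreated cells. miR-122-3p and miR-885-5p had no read in any library.

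miR-143-3p, the smooth muscle guide strand, was highest at 36 h with each siRNA. It stood at 159 CPM untreated (95% interval 148 to 170). In the order 24, 36 and 48 h, siRNA 1 cells then had 196, 746 and 447 CPM, and siRNA 2 cells had 164, 708 and 387 CPM. The 2 libraries of a time lay close to each other and the times did not overlap: 36 h was highest, 48 h came between, and 24 h was nearest to untreated. These values rested on 393 to 1715 reads a library. Among the miRNAs of its library, miR-143-3p ranked 77th and 74th at 36 h, against 135th untreated.

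Its log2 fold change against untreated was 0.18 ± 0.32 (SE) at 24 h, 2.19 ± 0.35 at 36 h and 1.39 ± 0.34 at 48 h. In the edgeR quasi-likelihood test the 36 h value had the smallest p of 458 miRNAs tested, but no time passed (adjusted p = 0.997, 0.217 and 0.367 at 24, 36 and 48 h). Set against 24 h, which leaves out the lone untreated library, 48 h gave 1.21 ± 0.26 (edgeR adjusted p = 0.244), the second smallest p of the 458. miR-143-3p was above untreated in 6 of 6 siRNA-treated libraries, as were 10.3% of all miRNAs tested. DESeq2 called 0 of the members at 24 h (0.218% of all miRNAs tested). miR-143-3p passed by DESeq2 at 36 h (adjusted p = 2.4e-05), at 48 h (0.0274) and for 48 h against 24 h (0.0192), where DESeq2 called 1.53%, 2.62% and 5.02% of all miRNAs tested.

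The 2 libraries of each time received different siRNAs, and those of 36 h differed most from each other. What lies behind this spread was not tested. Over the 458 miRNAs, log2 CPM with siRNA 2 minus log2 CPM with siRNA 1 had an SD of 0.57, 1.22 and 0.50 at 24, 36 and 48 h. For miR-143-3p itself this difference was -0.25, -0.08 and -0.21 at the same times. Without siRNA 1 at 36 h, miR-143-3p passed edgeR at 36 h (adjusted p = 3.8e-05), at 48 h (0.000864) and for 48 h against 24 h (0.000228), where 91, 94 and 122 of all miRNAs tested passed. Without siRNA 2 at 36 h it passed as well, with edgeR adjusted p-values of 1.7e-07, 0.000103 and 1.1e-05, where 14, 113 and 131 passed. At 24 h it did not pass in any of the fits run. Such a fit no longer holds the spread of the 36 h pair, and its p-values leave that spread out.

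**Figure D1:**
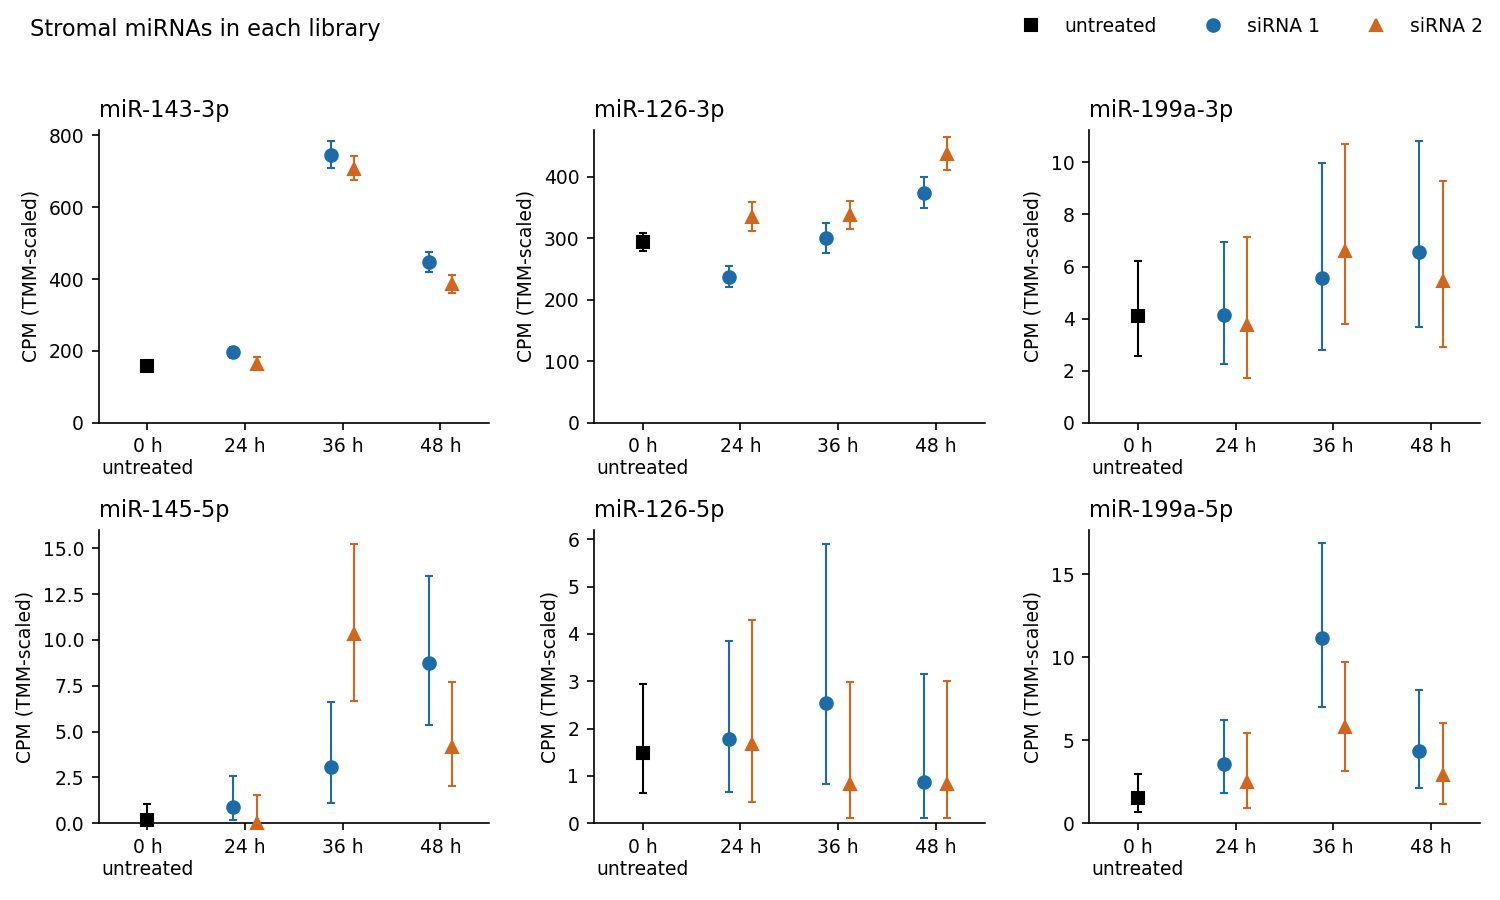
Level of each of the 6 miRNAs in each library, in CPM on a linear axis from 0, by time of siRNA treatment with untreated cells at 0 h. Squares are untreated, circles siRNA 1 and triangles siRNA 2, and bars are exact 95% Poisson intervals of counting error. miR-143-3p reaches 746 and 708 CPM at 36 h while miR-145-5p stays at or below 10.3 CPM in every library.

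miR-145-5p, the partner of miR-143 on CARMN and a known repressor of KLF4 and OCT4, was near the limit of detection. It had 1 read untreated (0.187 CPM, interval 0.00472 to 1.04), then 3, 6 and 20 reads at 24, 36 and 48 h of siRNA 1 (0.887, 3.04 and 8.74 CPM). Over the same times of siRNA 2 it had 0, 25 and 10 reads (0, 10.3 and 4.17 CPM), where the 0 allows up to 1.26 CPM. Both 48 h libraries thus lay above both 24 h libraries, as they did for 28.2% of the miRNAs tested. At 36 h siRNA 2 had an interval of 6.68 to 15.2 CPM and siRNA 1 one of 1.11 to 6.61 CPM, so the pair stood apart by more than counting error.

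With a mean of 9.29 reads miR-145-5p missed the minimum mean count of 10 and was not tested against untreated. The ratio of its summed reads at 48 h over 24 h, 30 against 3 reads, was 12.3 (exact interval 3.83 to 63.1). The ratio over untreated, with 1 untreated read, was 37.8 at 36 h (interval 6.30 to 1540) and 34.3 at 48 h (5.71 to 1401). These intervals pool both siRNA libraries of a time and cover counting error only, although the 36 h pair stood apart by more than that. In the fit with no count filter, over 1560 miRNAs, edgeR gave an adjusted p of 0.0230 at 36 h, 0.00906 at 48 h and 0.00689 for 48 h against 24 h. That fit called 10, 39 and 51 miRNAs in these comparisons, and its fitted fold changes for miR-145-5p depend on the handling of the single untreated read.

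Because the members of a pair sit in the same library, their ratio does not depend on the scale. miR-145-5p made up 0.117% of the reads of miR-145-5p plus miR-143-3p in untreated cells (Clopper-Pearson interval 0.00297 to 0.652). With siRNA 1 its share was 0.450%, 0.406% and 1.92% at 24, 36 and 48 h, and with siRNA 2 it was 0%, 1.44% and 1.07%. The lower bounds of siRNA 1 at 48 h (1.18%) and siRNA 2 at 36 h (0.932%) lay above the untreated upper bound, while that of siRNA 2 at 48 h (0.513%) did not. In siRNA 1 at 36 h, miR-143-3p was thus at its highest CPM with a miR-145-5p share close to that of siRNA 1 at 24 h. Reads of miR-143-3p outnumbered those of miR-145-5p by 51.1 to 851 times in the 6 libraries where miR-145-5p had a read. With 6 libraries against 1 an exact two-sided permutation test cannot go below 0.143, and with 2 against 2 not below 0.333, so no test was made of these shares.

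The opposite arms were at the floor. miR-143-5p had 4 reads and miR-145-3p 4 reads with siRNA 2 at 36 h, the library with the most miR-143-3p and miR-145-5p reads, and in the other 6 libraries miR-143-5p had none and miR-145-3p at most 1.

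**Figure D2:**
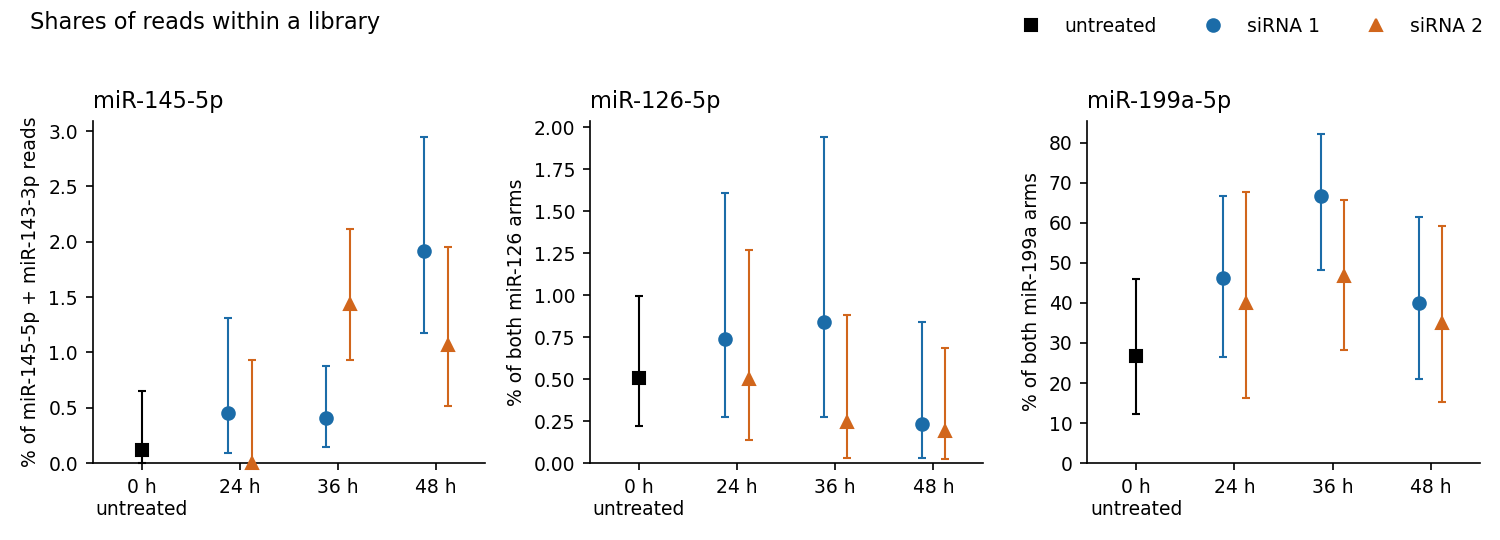
Share of reads within a library, in percent, for miR-145-5p of miR-145-5p plus miR-143-3p, for miR-126-5p of both miR-126 arms and for miR-199a-5p of both miR-199a arms, by time of treatment (untreated at 0 h). Bars are 95% Clopper-Pearson intervals; miR-145-5p is at 1.44% and 1.07% with siRNA 2 at 36 and 48 h and at 1.92% with siRNA 1 at 48 h, against 0.117% untreated.

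miR-126-3p, the endothelial guide strand, varied least among the abundant members. It stood at 294 CPM untreated (interval 279 to 308), and then, in the order 24, 36 and 48 h, at 237, 300 and 374 CPM under siRNA 1 and at 334, 337 and 437 CPM under siRNA 2. Both 48 h libraries were above every other library, whereas the 24 h libraries lay on either side of untreated. Of all miRNAs tested, 28.2% had both 48 h libraries above both 24 h libraries and 41.9% had both above untreated. Its log2 fold change was -0.04 ± 0.35 (SE) at 24 h, 0.12 ± 0.36 at 36 h and 0.47 ± 0.36 at 48 h against untreated, and 0.50 ± 0.29 for 48 h against 24 h. None passed edgeR (adjusted p from 0.387 to 0.997). Its range over the 7 libraries was 1.84-fold, against 4.70-fold for miR-143-3p.

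miR-126-5p, the other arm of the same hairpin, had 8 reads untreated, 6, 5 and 2 reads with siRNA 1 and 4, 2 and 2 reads with siRNA 2 at 24, 36 and 48 h. This came to 0.826 to 2.53 CPM after siRNA and 1.49 CPM untreated, with intervals that all overlapped, and with a mean of 4.14 reads it was not tested. The 5p arm was 0.190% to 0.838% of the reads of both arms after siRNA and 0.506% untreated (interval 0.219 to 0.994). In each library miR-126-3p thus outnumbered miR-126-5p by over 100 to 1, and a change of arm use was not detectable at this depth.

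Read against each other, miR-143-3p and miR-126-3p give a contrast between a smooth muscle and an endothelial miRNA that no scaling can move, a pair chosen after their values were seen. The ratio of miR-143-3p reads to miR-126-3p reads was 0.541 untreated. It was 0.826, 2.49 and 1.20 with siRNA 1 and 0.492, 2.10 and 0.884 with siRNA 2 at 24, 36 and 48 h. Both 36 h libraries had the highest ratios and 24 h with siRNA 2 had the lowest, below untreated. As shares, miR-143-3p made up 71.3% of the pair's reads (Clopper-Pearson interval 69.3 to 73.3) and 67.7% (65.9 to 69.6) at 36 h, against 35.1% (33.2 to 37.0) untreated. Adapter ligation is known to differ in yield between miRNAs, so a ratio between miRNAs shows how it moved and not how many molecules of each there were.

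miR-199a was scarce. miR-199a-3p had 22 reads untreated, 14, 11 and 15 reads with siRNA 1 and 9, 16 and 13 reads with siRNA 2 at 24, 36 and 48 h. This came to 4.10 CPM untreated (interval 2.57 to 6.21), then 4.14, 5.57 and 6.55 CPM under siRNA 1 and 3.77, 6.60 and 5.43 CPM under siRNA 2, and the intervals of all 7 libraries overlapped. Its log2 fold changes against untreated ran from -0.05 ± 0.58 (SE) at 24 h to 0.57 ± 0.58 at 36 h, and none passed edgeR (adjusted p from 0.658 to 0.997). Summed with the identical miR-199b-3p, the sequence had 11 to 28 reads after siRNA and 38 reads untreated, or 4.60 to 11.6 CPM and 7.09 CPM.

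miR-199a-5p, known in other systems as a profibrotic miRNA that represses caveolin 1, had 8 reads untreated (1.49 CPM, interval 0.644 to 2.94). With siRNA 1 it had 12, 22 and 10 reads (3.55, 11.1 and 4.37 CPM) and with siRNA 2 it had 6, 14 and 7 reads (2.51, 5.78 and 2.92 CPM) at 24, 36 and 48 h. All 6 siRNA-treated libraries were above untreated, and 36 h was highest for each siRNA. All 6 above held for 10.3% of all miRNAs tested. miR-199a-5p is not read against that share, since only its 36 h reads took it past the count filter. Its log2 fold change was 1.02 ± 0.77 (SE), 2.46 ± 0.77 and 1.26 ± 0.78 at 24, 36 and 48 h (edgeR adjusted p = 0.997, 0.917 and 0.456). It reached the minimum mean count of 10 only through its 36 h reads, so this 36 h test was open to it because the value was high. With no count filter the 36 h value was 2.35 ± 0.92 (edgeR adjusted p = 0.619). With siRNA 1 as the lone 36 h library it was 2.86 ± 0.80 (adjusted p = 0.0223), which is under the same limit. Without siRNA 1 at 36 h its mean count was under 10 and it was not tested. By counting error alone the ratio at 36 h, 36 against 8 reads, was 5.49 (interval 2.51 to 13.7).

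The 5p arm made up 26.7% of the miR-199a reads untreated (interval 12.3 to 45.9). It made up 46.2%, 66.7% and 40.0% with siRNA 1 and 40.0%, 46.7% and 35.0% with siRNA 2 at 24, 36 and 48 h. Only siRNA 1 at 36 h had a lower bound (48.2%) above the untreated upper bound, and the intervals of the other libraries, on 15 to 30 reads each, overlapped that of untreated. Of the relatives, miR-199b-5p had 1 to 11 reads after siRNA and 7 reads untreated. miR-214-3p and miR-214-5p, which share DNM3OS with miR-199a, had at most 2 reads in any library, and miR-3120-3p and miR-3120-5p, cut from the opposite strand there, at most 3.

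**Figure D3:**
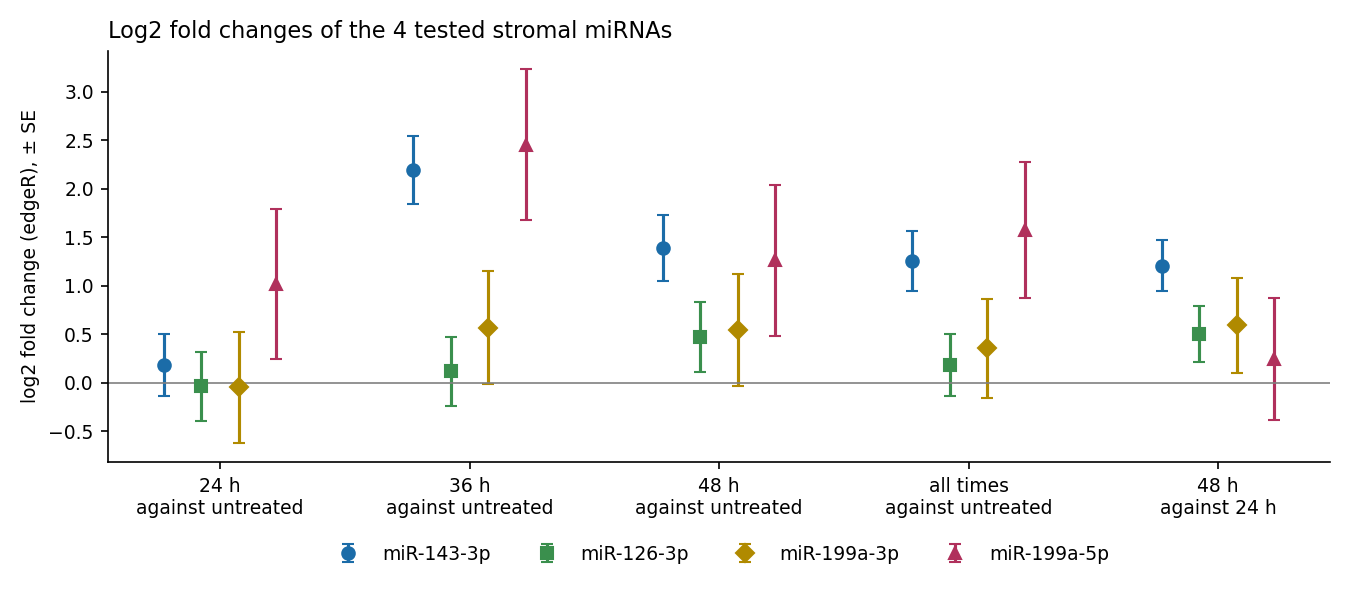
Log2 fold change (edgeR, error bars ± SE) of the 4 stromal miRNAs that reached the minimum mean count of 10, for each time against untreated, for the mean of the 3 times against untreated and for 48 h against 24 h. miR-143-3p is at 0.18, 2.19 and 1.39 at 24, 36 and 48 h and miR-126-3p at -0.04, 0.12 and 0.47, and no value passed at an adjusted p of 0.05.

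Counted together, 4 of the 6 members were tested, and edgeR called 0 of the 4 in every comparison, with 0% of all miRNAs called. At an unadjusted p under 0.05 edgeR gave 0 members at 24 h (2.40% of all miRNAs tested), 2 at 36 h (4.15%), 1 at 48 h (11.6%) and 1 for 48 h against 24 h (18.3%). The members at 36 h were miR-143-3p and miR-199a-5p, and in the other cases it was miR-143-3p. Since miR-199a-5p was tested only because its 36 h reads were high, the 36 h count and median that include it are descriptions and are not read against the share of all miRNAs. The median log2 fold change of the 4 was 0.07 at 24 h, 1.38 at 36 h, 0.90 at 48 h and 0.55 for 48 h against 24 h, where the median of all miRNAs tested was -0.04, -0.03, -0.02 and 0.03. miR-143-3p, miR-126-3p and miR-199a-3p were above untreated in both libraries at 36 h and at 48 h, as were 24.5% and 41.9% of all miRNAs tested. So was miR-199a-5p, which at 36 h is not read against that share. At 24 h miR-143-3p and miR-199a-5p were above untreated in both libraries, with 25.5% of all. The comparisons with untreated share the same untreated library.

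Over the 3 times together, miR-143-3p had a log2 fold change of 1.26 ± 0.31 (SE) and miR-199a-5p of 1.58 ± 0.70, with miR-126-3p at 0.18 ± 0.32 and miR-199a-3p at 0.35 ± 0.51. The value of miR-199a-5p is a description only, since this comparison includes the 36 h reads that took it past the count filter. edgeR called none (adjusted p of 0.762 for miR-143-3p and 0.899 for the other 3), with 1 of the 4, miR-143-3p, at an unadjusted p under 0.05 (5.02% of all miRNAs tested). DESeq2 gave miR-143-3p an adjusted p of 0.0506 and called none of the members, with 0.218% of all miRNAs called. Without siRNA 1 at 36 h edgeR gave miR-143-3p an adjusted p of 0.00162, and without siRNA 2 at 36 h one of 0.000649. Between the siRNAs, siRNA 2 minus siRNA 1 with time as a factor, edgeR called 0 of the 5 members tested there (0% of 435 miRNAs; 1.38% at an unadjusted p under 0.05, none a member), and DESeq2 called 0. The log2 differences were -0.15 ± 0.24 for miR-143-3p, 0.33 ± 0.25 for miR-126-3p, -0.02 ± 0.49 for miR-199a-3p, -0.66 ± 0.52 for miR-199a-5p and -0.06 ± 0.83 for miR-145-5p. Those of miR-199a-3p and miR-145-5p turned positive with total miRNA counts as the scale (0.0077 and 0.0132). miR-143-3p and miR-199a-5p were lower and miR-126-3p higher with siRNA 2 at all 3 times. The share of all miRNAs with a constant sign over the 3 times was not computed.

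The scale matters for these members, since miRNA reads made up a smaller share of all reads after siRNA. Scaled to all reads (RPM), miR-143-3p stood at 59.5 untreated and then, in the order 24, 36 and 48 h, at 47.1, 103 and 73.3 under siRNA 1 and at 25.2, 131 and 70.1 under siRNA 2. The 24 h libraries were then below untreated and the 36 h and 48 h libraries above it, with log2 fold changes of -0.72 ± 0.67 (SE), 0.97 ± 0.71 and 0.27 ± 0.69, none of which passed edgeR (adjusted p = 0.392, 0.251 and 0.763). On that scale miR-126-3p had 41.4 to 79.3 after siRNA, against 110 untreated. miR-199a-3p had 0.577 to 1.22 after siRNA, against 1.54 untreated. The share of all miRNAs below untreated on that scale was not computed. The log2 fold change over all times was then -0.92 ± 0.56 for miR-126-3p, where the median of all miRNAs had moved to -1.13. For 48 h against 24 h, miR-143-3p stood at 1.21 with TMM, 1.54 ± 0.31 with total miRNA counts and 0.99 ± 0.56 with all reads.

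**Figure D4:**
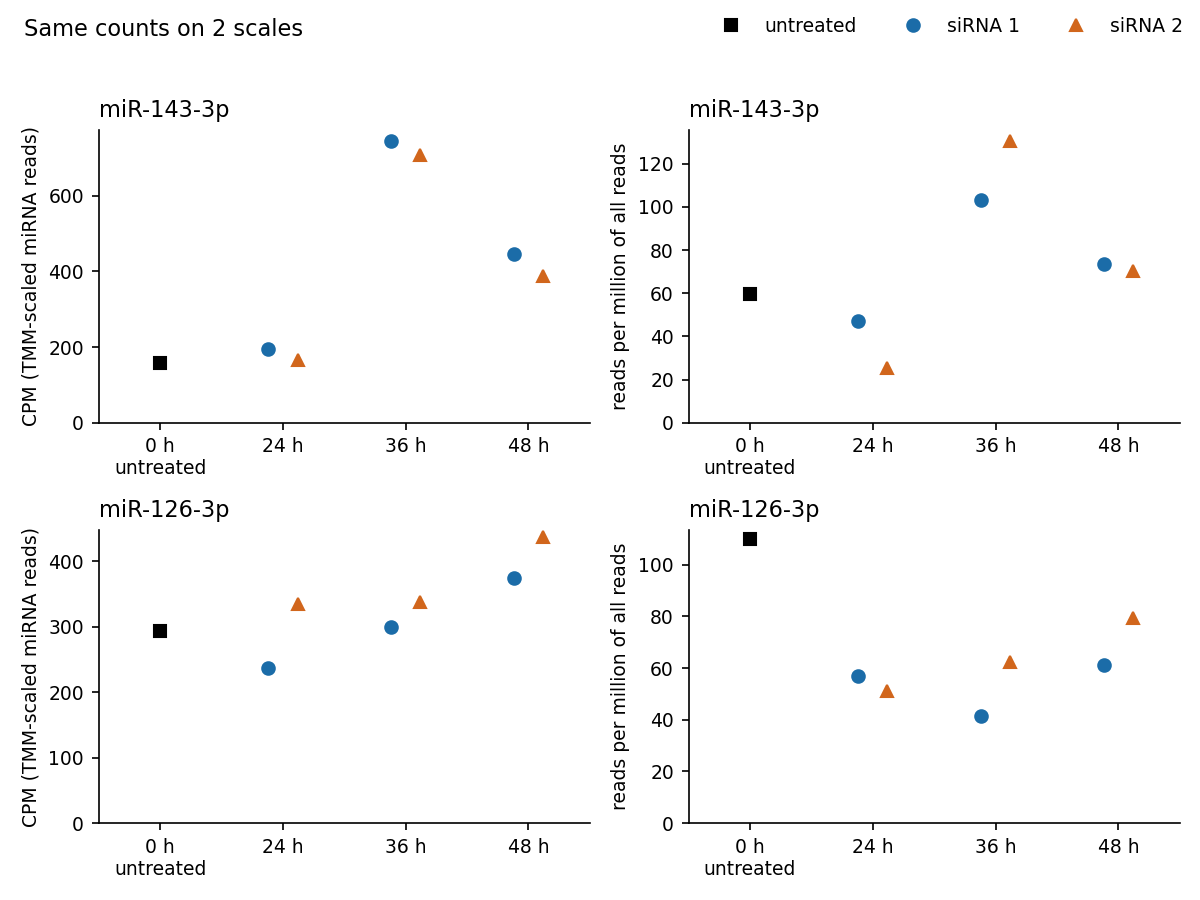
Levels of miR-143-3p and miR-126-3p in each library on 2 scales, CPM of miRNA reads with TMM scaling and RPM of all reads, both on linear axes from 0, by time of treatment with untreated cells at 0 h. miR-126-3p runs from 237 to 437 CPM after siRNA, around the untreated 294 CPM, but from 41.4 to 79.3 RPM of all reads after siRNA, below the untreated 110.

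Markers of other cell types were read beside the members. In bulk libraries fewer cells of a type and less RNA per cell cannot be told apart. Of 9 smooth muscle and fibroblast markers, which include 4 members, all 9 had a read in some library, and their summed level was 172 to 766 CPM after siRNA and 166 CPM untreated, nearly all of it miR-143-3p. The endothelial list holds only the miR-126 arms and follows miR-126-3p, at 239 to 438 CPM after siRNA and 295 CPM untreated. The 7 striated muscle markers summed to 21.6 to 881 CPM after siRNA and 24.1 CPM untreated, with miR-208a-3p and miR-208b-3p at 0 in all 7 libraries. The high value is siRNA 1 at 36 h, where miR-1-3p had 867 CPM, miR-206 6.58 CPM, miR-499a-5p 4.56 CPM and miR-133a-3p 2.53 CPM, each at its highest of the 7 libraries. In siRNA 2 at 36 h, miR-1-3p had 52.4 CPM and miR-206 0.413 CPM. At 36 h miR-143-3p stood at 746 CPM with siRNA 1 and 708 CPM with siRNA 2, and miR-199a-5p at 11.1 and 5.78 CPM. Any link between these levels and the striated muscle markers was not tested.

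The 7 blood markers summed to 16.3 to 80.1 CPM after siRNA and 15.9 CPM untreated, and miR-223-3p was at 0 in all 7 libraries. Apart from miR-451a, each was at or below 3.04 CPM in every library. miR-142-3p had 1.24 to 3.04 CPM after siRNA, around its 1.87 CPM untreated. miR-142-5p had 0 to 1.75 CPM after siRNA, against 1.49 CPM untreated. miR-144-3p had 0 CPM untreated and up to 1.24 CPM after siRNA. Most of the sum was miR-451a, an erythroid miRNA, at 11.7 CPM untreated. At 24, 36 and 48 h it had 12.7, 21.8 and 41.9 CPM under siRNA 1 and 13.0, 73.1 and 32.1 CPM under siRNA 2. Its 4 highest libraries came in the same order as those of miR-145-5p. This order, seen after the values, was not particular to miR-451a. The epithelial miR-200a-3p had it too, at 8.26 CPM with siRNA 2 at 36 h and 7.86 CPM with siRNA 1 at 48 h. Next came 4.17 CPM with siRNA 2 at 48 h and 4.05 CPM with siRNA 1 at 36 h. The 7 epithelial markers summed to 37.3 to 85.0 CPM after siRNA and 37.7 CPM untreated, with siRNA 2 at 36 h highest again. That library was highest for each of them except miR-203a-3p and miR-205-5p. miR-203a-3p was highest in siRNA 2 at 48 h (5.01 CPM). miR-205-5p stood at 6.90 CPM untreated and 8.74 CPM in siRNA 1 at 48 h. In the other siRNA-treated libraries it was lower, at 2.37 to 6.08 CPM. The part of these cell types in the levels of the members was not tested. The 6 neuronal markers (904 to 1233 CPM after siRNA, 1195 CPM untreated) ranged on either side of untreated, but their sum is nearly all miR-218-5p. It does not show miR-9-5p, at 29.3 to 44.6 CPM after siRNA and 25.2 CPM untreated. Nor does it show miR-129-5p (5.32 to 9.61 CPM, 5.04 CPM untreated) or miR-137-3p (2.06 to 13.0 CPM, 9.14 CPM untreated). The 6 hepatocyte markers (16112 to 27483 CPM, 21025 CPM untreated) also ranged on either side of untreated. Their sum is mostly miR-148a-3p and does not show miR-122-5p, which was lower than untreated in every siRNA-treated library except siRNA 1 at 36 h. The part of miR-122-5p's course in the levels of the members was not tested.

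**Figure D5:**
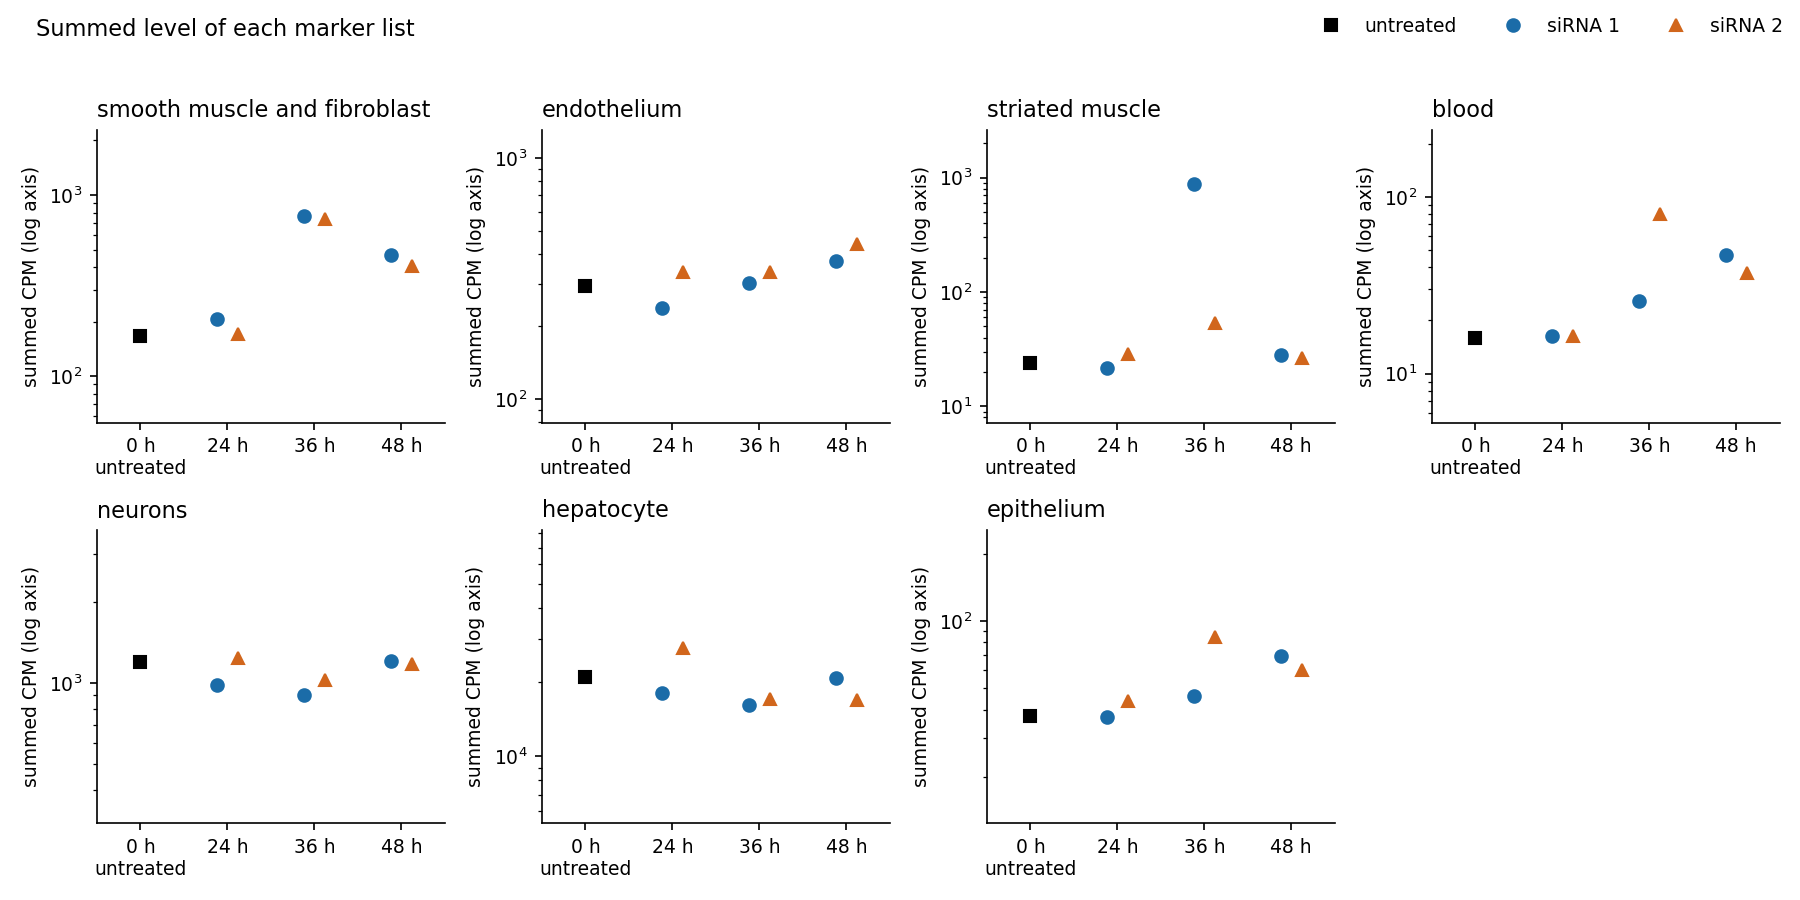
Summed CPM (log axis) of 7 lists of cell type markers in each library, by time of treatment with untreated cells at 0 h. The smooth muscle and fibroblast list is at 766 and 735 CPM at 36 h, against 166 CPM untreated, and the striated muscle list at 881 CPM in siRNA 1 at 36 h only.

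Over the 7 libraries, the miRNAs whose log2 CPM was most like that of miR-143-3p, among 274 compared, were miR-532-3p (Pearson r = 0.90), miR-125a-3p (0.89) and miR-451a (0.81). miR-532-3p spanned only 15.1 to 24.3 CPM after siRNA and stood at 13.4 CPM untreated. Those most like miR-126-3p were miR-197-3p (r = 0.98), miR-193b-3p (0.96) and miR-342-3p (0.95). miR-193b-3p, for example, stood at 405 CPM untreated, at 355, 424 and 639 CPM under siRNA 1 and at 485, 569 and 691 CPM under siRNA 2 over the 3 times, in the same order of libraries as miR-126-3p. These are descriptions over libraries that share their scaling, picked as the highest of 274.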

How the data were processed

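Total RNA was taken with a column kit and 2 ug went into an NEB small RNA library kit, per the labels' protocols. What the authors deposited is a file of raw counts for each library, with 1 row per mature miRNA. No aligner, counter or genome build is named in the labels or headers used here. The 5 summary lines of each file, 56.9% to 86.6% of its reads, entered neither library sizes nor tests, except where all reads served as the scale.

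Counts were scaled with TMM and tested with glmQLFTest in edgeR 4.0.16 under R 4.3.3. A mean of 10 or more counts was required, which left 458 miRNAs, or 435 in the fit between siRNAs, where time was a factor. Adjusted p-values are Benjamini-Hochberg over all miRNAs tested, with a threshold of 0.05. Untreated and the 3 times shared 1 fit, in which the spread of the single untreated library was taken from the treated pairs. Standard errors are the size of the log2 fold change over the root of F. DESeq2 1.42.0 served as an alternative, and likeness used miRNAs with a mean of 50 or more counts and log2 CPM with a prior count of 2. No 2 libraries held identical values. The scripts were checked on simulated counts.

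The members, marker lists and tests were chosen with earlier results of these data known. By rule, all 6 members were named, with their relatives from the same hairpins or clusters and the 3 miRNAs most like miR-143-3p and miR-126-3p. Members of the marker lists were named as examples of their list.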

Additional observations from a re-analysis of the deposited data

How the results depend on the processing

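Over 25 member results and 15 settings, 319 values were computed. Of these, 274 kept their direction and their side of the edgeR or DESeq2 threshold, 16 newly passed it and 29 changed sign. edgeR called 0 miRNAs in each of the 6 comparisons. In the order all times, 24 h, 36 h and 48 h against untreated and 48 h against 24 h, DESeq2 called 1, 1, 7, 12 and 23 miRNAs, all reads as the scale gave 120, 2, 49, 118 and 29, and no count filter gave 12, 2, 10, 39 and 51. Leaving out 1 library gave 0 to 65, 0 to 14, 0 to 91, 0 to 113 and 0 to 131, with calls only where a 36 h library was left out. Leaving out both 36 h libraries gave 50, 13, 117 and 134 where it could be run. Members called numbered 0 to 1 in these settings, apart from 2 at 36 h with no count filter or without 36 h replicate 2, and the cause was not tested. Leaving out 1 library gave 0 to 1, 0 to 2, 0 to 1 and 0 to 1 members for all times, 36 h, 48 h and 48 h against 24 h.

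With all reads as the scale, log2 fold changes turned to -0.92, -1.09 and -0.65 for miR-126-3p and to -0.72, -0.63 and -0.57 for miR-199a-3p (all times, 36 h, 48 h), and to -0.72 for miR-143-3p at 24 h. The median of all miRNAs then lay between -1.25 and -0.97 in the comparisons with untreated, and at 0.19, 0.31 and 0.33 (all times, 36 h, 48 h) with total counts. Other values also changed sign. At 24 h miR-126-3p was at 0.0265 with DESeq2, 0.0268 with its size factors, 0.0041 at a mean count of 50 and 0.0243 without both 36 h libraries. At 24 h miR-199a-3p was at 0.0130 in the DESeq2 fit, 0.0136 with its size factors and 0.0111 without both 36 h libraries. Between siRNAs miR-145-5p was at 0.0132 with total counts, 0.0159 with all reads and 0.27 without the time term, and miR-199a-3p was at 0.0077 with total counts and 0.00033 without the time term. Leaving out 1 library moved miR-126-3p at 24 h over -0.32 to 0.19, miR-199a-3p at 24 h over -0.12 to 0.00043 and miR-199a-5p for 48 h against 24 h over -0.065 to 0.52. Between siRNAs it moved miR-145-5p over -1.28 to 0.72 and miR-199a-3p over -0.16 to 0.11.

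The number shared by libraries of a siRNA names a treatment. Deviations of same-numbered libraries correlated at 0.10, -0.25 and -0.16 between times, and the replicate block changed no call of a member (miR-143-3p at 36 h 2.20, adjusted p = 0.334). miR-199a, miR-145-5p and miR-126-5p, with at most 25 reads a library, are limited by depth.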
